A study of Mus musculus with 9 samples.

Results

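The 9 genes described here encode the class I histone deacetylases Hdac1, Hdac2, Hdac3 and Hdac8, the class IIa enzymes Hdac4, Hdac5, Hdac7 and Hdac9, and the single class IV enzyme, Hdac11. They were picked by gene symbol from the 20731 symbols with read counts in mouse brain, as the members of these 3 enzyme classes. All 9 passed the filter on low counts that left 14746 genes for testing.

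Histone deacetylases take acetyl groups off lysines in histone tails and other proteins, which closes chromatin and lowers transcription, and they work against lysine acetyltransferases. Class I enzymes sit in the nucleus, where Hdac1 and Hdac2 form the core of the SIN3, NuRD and CoREST co-repressor complexes and Hdac3 works with NCoR. Class IIa enzymes have little deacetylase activity of their own, bind MEF2 transcription factors, and leave the nucleus once calcium-dependent kinases phosphorylate them and 14-3-3 proteins hold them in the cytoplasm. 4-phenylbutyric acid (4-PBA) is used as a chemical chaperone against endoplasmic reticulum stress, and it is also a weak inhibitor of class I and IIa enzymes. It inhibits the enzymes, and whether it also changes their mRNAs is not settled here. The values below give the amount of message for its possible targets and not their activity.

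RNA was sequenced from 9 male C57BL/6J mice aged 8 to 10 weeks, 3 in each of 3 groups, on day 2 after modelling. All of them had cerebral venous sinus thrombosis (CVST), made by laying a thread soaked in ferric chloride on the superior sagittal sinus for a short time. The CVST group had only that, the CVST+Ligation group also had its deep cervical lymph nodes tied off, and the 4-PBA group had thrombosis, ligation and 100 mg/kg of 4-PBA injected into the abdomen. The methods place the injection 30 min before modelling and the submitters' design text places it after ligation. Control mice were given solvent, per the methods. Control is also the name of a separate group in that study, so it is not clear whether the CVST or CVST+Ligation mice received any solvent. No mice without thrombosis were analysed here, so none of the values shows what the thrombosis itself did.

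The libraries held 18100739 to 25091498 counts, and each of the 9 genes had at least 161 counts in each of them. Markers of neurons, astrocytes, oligodendrocytes and microglia were present in all 9 libraries, as the tissue label (brain) requires. The labels say brain and the design text says cortex, and markers of single brain regions differed between the groups. The summed level of 6 midbrain dopamine neuron markers was 17.9 to 19.5 CPM (counts scaled to library size) in the CVST group, 166 to 204 in the CVST+Ligation group and 224 to 227 in the 4-PBA group, with Pitx3 at 0 in every CVST mouse. The summed level of 7 hypothalamic markers was 2.25 to 3.47 CPM in the CVST group, 2.23 to 20.9 CPM in the CVST+Ligation group and 277 to 473 CPM in the 4-PBA group. Markers of cerebellar neurons reached 1096 CPM in CVST+Ligation mouse 2 and at most 67.4 CPM in the other 8 mice, with Gabra6 and Barhl1 at 0 throughout the CVST group and Gabra6 at 0 throughout the 4-PBA group. The region sampled and the treatment therefore cannot be told apart in any comparison below. In bulk tissue, fewer cells of a type and less RNA per cell cannot be told apart either.

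The classes differ at a residue of the catalytic pocket, the part of the enzyme that inhibitors occupy, and the codon is shown for that reason. Class I and class IV enzymes carry a tyrosine that takes part in the reaction, and the class IIa enzymes of vertebrates carry a histidine in its place. The coding sequence around that codon is given 5′ to 3′ on the sense strand, with the codon in capitals, from the GENCODE annotation of GRCm38, the build the submitters name.
Hdac1: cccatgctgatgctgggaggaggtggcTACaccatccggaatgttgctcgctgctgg
Hdac2: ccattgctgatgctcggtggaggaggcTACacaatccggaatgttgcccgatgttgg
Hdac8: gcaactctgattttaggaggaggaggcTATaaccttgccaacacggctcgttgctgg
Hdac4: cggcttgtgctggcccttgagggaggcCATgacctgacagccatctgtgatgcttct
Hdac5: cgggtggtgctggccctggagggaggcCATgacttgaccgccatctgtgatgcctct
Hdac7: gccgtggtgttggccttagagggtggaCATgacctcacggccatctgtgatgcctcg
Hdac9: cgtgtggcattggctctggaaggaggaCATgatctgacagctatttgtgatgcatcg
Hdac11: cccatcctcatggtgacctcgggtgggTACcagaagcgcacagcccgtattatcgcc

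The codon of Hdac1 lies at chr4:129518901-129518903 (minus strand), in exon 9 of 14, and that of Hdac2 at chr10:36997057-36997059 (plus strand), also in exon 9 of 14. The codon of Hdac8 is at chrX:102402672-102402674 (minus strand), in exon 9 of 11. In class IIa it is at chr1:91945960-91945962 for Hdac4 (exon 24 of 27), chr11:102196599-102196601 for Hdac5 (exon 26 of 29), chr15:97796158-97796160 for Hdac7 (exon 22 of 25) and chr12:34107278-34107280 for Hdac9 (exon 22 of 25), all on the minus strand. The codon of Hdac11 is at chr6:91173130-91173132 (plus strand), in the last of 10 exons. Of the 57 bases shown, 48 were identical between Hdac1 and Hdac2 (84.2%) and 51 between Hdac4 and Hdac5 (89.5%). Hdac1 and Hdac4 shared 18 bases (31.6%). Hdac11 was close to neither class, with 20 to 27 bases (35.1% to 47.4%) shared with the class I genes shown and 17 to 22 bases (29.8% to 38.6%) with the class IIa genes. Hdac3 also belongs to the tyrosine group and its sequence is not shown.

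The levels of the 9 genes relative to one another were read from the deposited FPKM values, which are per length. Hdac11, which removes fatty acyl as well as acetyl groups, had the highest mean over the 9 mice (116 FPKM), closely followed by Hdac2 (108 FPKM). Hdac3, the catalytic subunit of NCoR complexes, came next at 70.4 FPKM, then the class IIa enzyme Hdac5 at 57.2 FPKM and Hdac1 at 33.6 FPKM. Hdac8, the class I member that works outside the large co-repressor complexes and deacetylates cohesin, averaged 19.2 FPKM. The other class IIa members were the lowest, with means of 6.54 FPKM for Hdac4, 5.52 FPKM for Hdac9 and 4.64 FPKM for Hdac7. Brain thus held class IIa message mainly from Hdac5, and class I message mainly from Hdac2 and Hdac3.

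Of the 8 pairs of neighbours in this order, 5 kept it in 9 of 9 mice. Hdac11 exceeded Hdac2 in 4 of 9 mice, all of them in the ligated groups. In the CVST mice, Hdac11 stood at 78.9, 80.6 and 96.0 FPKM and Hdac2 at 106.7, 105.9 and 126.9 FPKM, so Hdac2 was higher in each. In the CVST+Ligation mice, Hdac11 stood at 118.4, 145.6 and 108.7 FPKM against 111.2, 81.5 and 112.0 FPKM for Hdac2. In the 4-PBA mice, Hdac11 stood at 172.3, 135.7 and 110.0 FPKM against 99.9, 112.8 and 111.2 FPKM for Hdac2. Hdac11 was therefore the higher of the pair in mice 1 and 2 of both ligated groups and just below Hdac2 in mouse 3 of each. Hdac4 exceeded Hdac9, and Hdac9 exceeded Hdac7, in 6 of 9 mice, so these 3 genes have no fixed order. The lengths behind the FPKM values are close to coding lengths. Per kilobase of the longest annotated mRNA, Hdac2 (50.9 CPM) and Hdac11 (50.01 CPM) again lay side by side. Hdac3 (47.8 CPM) and Hdac5 (42.7 CPM) then came close to them, so the lead of Hdac11 and Hdac2 in FPKM depended on the lengths used. Hdac7 (3.27 CPM) moved above Hdac4 (2.62 CPM) and Hdac9 (2.42 CPM).

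**Figure D1:**
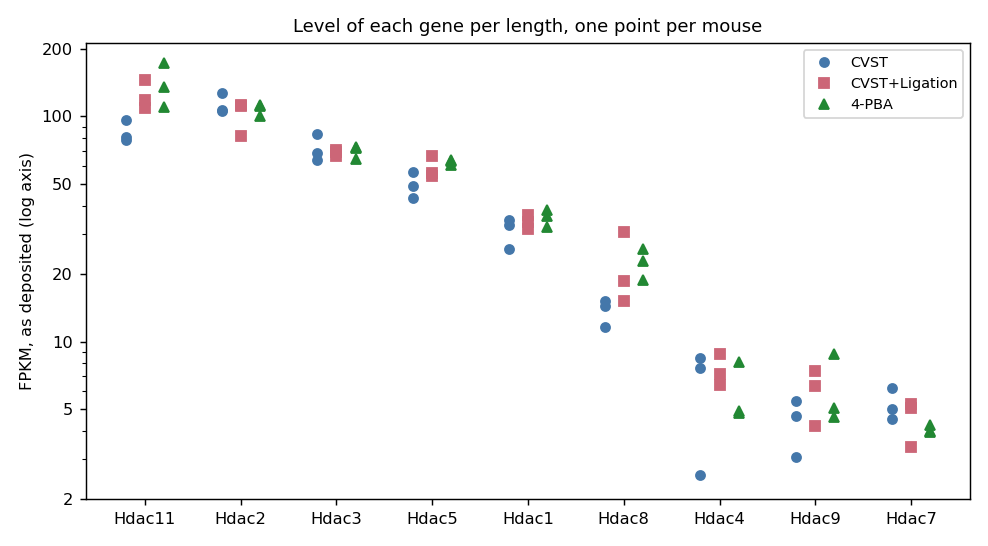
Level of each gene in each mouse, in FPKM as deposited, on a log axis, with genes in order of their mean over the 9 mice and 1 point per mouse, coloured by group. Hdac11 and Hdac2 share the top, Hdac4, Hdac9 and Hdac7 share the bottom, and Hdac4 has a single CVST mouse at 2.56 FPKM, far under its other values.

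The comparison of the 4-PBA group with the CVST+Ligation group asks what the drug did in ligated mice. None of the 9 mRNAs differed between these groups in edgeR's quasi-likelihood test, either at an unadjusted p below 0.05, which 3.23% of the 14746 genes met, or after Benjamini-Hochberg adjustment, which no gene met. DESeq2 also called none of the 9 at either level, where over all genes it called 570 unadjusted and 22 adjusted. In none of the 9 did the 3 treated mice lie apart from the 3 ligated mice, against 7.73% of all genes. The median log2 fold change over the 9 was 0.04 and that over all genes was -0.02, and 6 of the 9 were above 0, as were 47% of all genes.

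Among class I genes the values were close. Hdac1 measured 52.6, 47.7 and 46.9 CPM in the CVST+Ligation mice and 51.1, 46.6 and 53.1 CPM in the 4-PBA mice, with fully interleaved values. Its log2 fold change was 0.04 with a 95% interval of -0.29 to 0.36. Hdac3 was the tightest of all in the CVST+Ligation group, at 95.9, 94.6 and 94.6 CPM, and stood at 87.8, 100.5 and 95.03 CPM in the 4-PBA group, on both sides of the ligated mice. Its log2 fold change was -0.01 with an interval of -0.31 to 0.29, and its sign depended on the scaling, turning to 0.02 with total counts alone. Hdac2 stood at 170.4, 121.5 and 176.5 CPM with ligation and at 150.5, 172.1 and 163.2 CPM with 4-PBA. CVST+Ligation mouse 2 was the low one, and the log2 fold change was 0.05 with an interval of -0.31 to 0.42. For Hdac8 it was 0.05, with a wider interval of -0.51 to 0.61.

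In class IIa, Hdac5 had the narrowest interval. It measured 203.6, 235.8 and 202.8 CPM in the CVST+Ligation mice and 228.9, 219.7 and 219.3 CPM in the 4-PBA mice, and the treated values fell between the ligated ones. The log2 fold change was 0.06 with an interval of -0.24 to 0.36. Hdac7, which is also made in endothelium and in developing thymocytes, had a log2 fold change of -0.20 with an interval of -0.64 to 0.25. Hdac9 gave 0.01 with an interval of -0.71 to 0.73, and Hdac4 gave -0.36 with an interval of -1.23 to 0.52, the lowest value and widest interval of the 9. With single libraries left out, Hdac4 ran from -0.63 to -0.21, and without 4-PBA mouse 3 it (-0.210) was no longer below Hdac7 (-0.215). Hdac11 had the highest value, 0.14 with an interval of -0.28 to 0.56. That value was -0.027 without 4-PBA mouse 1 and was passed by that of Hdac8 (0.38 against 0.26) without CVST+Ligation mouse 2. On the linear scale, the intervals of Hdac1 (0.82 to 1.28-fold), Hdac3 (0.81 to 1.22-fold) and Hdac5 (0.84 to 1.28-fold) were the narrowest, and those of Hdac4 (0.43 to 1.43-fold) and Hdac9 (0.61 to 1.66-fold) the widest.

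**Figure D2:**
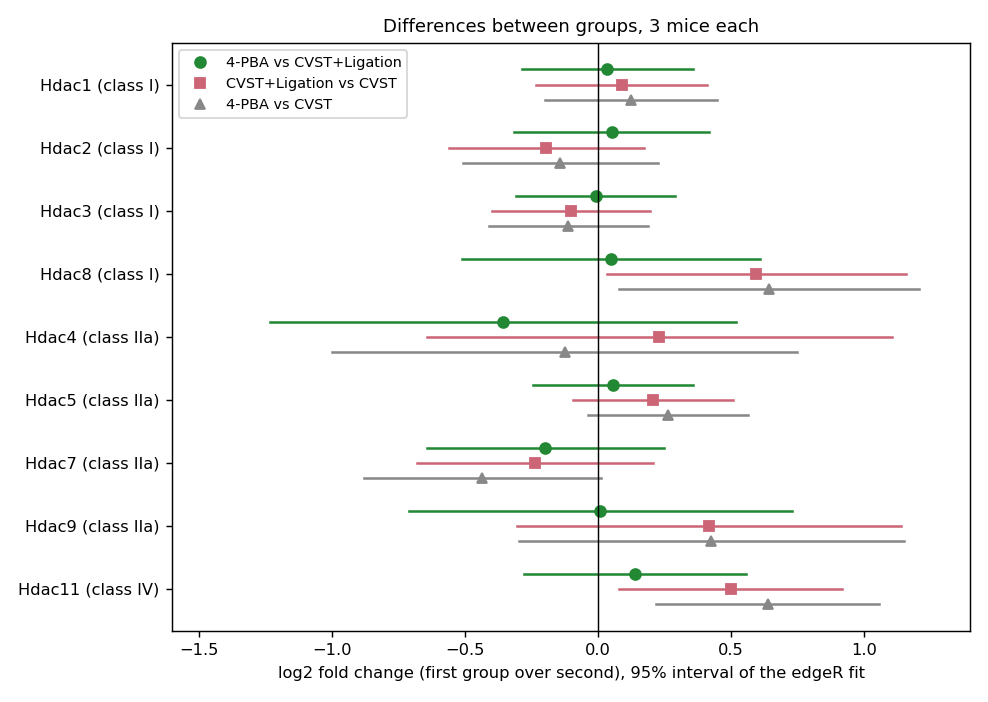
Log2 fold change of each gene in the 3 comparisons, from the edgeR fit of all 9 libraries, with 95% intervals. All green intervals (4-PBA vs CVST+Ligation) cross 0, and only those of Hdac8 and Hdac11 in the 2 comparisons with the CVST group lie wholly above it.

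The comparison of the CVST+Ligation group with the CVST group asks what ligation added to the thrombosis. Of the 9 mRNAs, 2 were higher at an unadjusted p below 0.05 in edgeR's test, Hdac11 and Hdac8, and none was lower. Over all genes 9.64% met that level, 5.47% as higher and 4.18% as lower. None of the 9 passed after Benjamini-Hochberg adjustment, which 0.0203% of genes did. DESeq2 adjustment called none of the 9 either, out of the 264 genes it called in all. The median log2 fold change of the 9 was 0.21, beside 0.00 over all genes.

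Hdac11 measured 92.8, 92.4 and 115.7 CPM in the CVST mice and 135.4, 161.9 and 127.7 CPM in the CVST+Ligation mice. Each ligated mouse lay above each CVST mouse, the only one of the 9 genes for which the groups did not overlap here, against 13.8% of all genes and 6.61% in that direction. The log2 fold change was 0.50 ± 0.19 (SE, 3 mice per group), or 1.41-fold, with an unadjusted p of 0.0245 and an adjusted p of 0.431 in edgeR's test. The unadjusted p rose above 0.05 when CVST mouse 1 (0.0714), CVST mouse 2 (0.0727) or CVST+Ligation mouse 2 (0.0767) was left out of the edgeR fit. Exons of Hdac11 share 15.4% of their bases with Gm44002 on the opposite strand, and the methods name an orientation mode for the alignment but do not say whether the counting used strand, so reads of the pair may not be separate.

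Hdac8, on the X chromosome, measured 13.4, 16.3 and 18.01 CPM in the CVST mice and 21.0, 33.5 and 17.6 CPM in the CVST+Ligation mice. Ligated mouse 2 was far above the rest and ligated mouse 3 lay inside the CVST range. The log2 fold change was 0.60 ± 0.25 (SE, 3 mice per group), with an unadjusted p of 0.0403 and an adjusted p of 0.497 in edgeR's test. Without CVST+Ligation mouse 2, the library with the cerebellar markers, the log2 fold change was 0.28 and the edgeR p was 0.202, and leaving out CVST mouse 1 (0.127) or CVST mouse 2 (0.0744) also took the p above 0.05, as did fitting only the 2 groups (0.0624) and leaving out CVST mouse 3 and CVST+Ligation mouse 2 together (0.117).

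The other 7 genes did not pass. Hdac5 had a log2 fold change of 0.21 (interval -0.09 to 0.51), and it passed only when CVST mouse 3, its highest CVST mouse, was left out of the edgeR fit (0.32, with an unadjusted p of 0.0224). Hdac9 and Hdac4 had 0.42 (interval -0.30 to 1.14) and 0.23 (interval -0.64 to 1.104), with wide intervals. Hdac1 had 0.09, Hdac3 -0.10, Hdac2 -0.19 and Hdac7 -0.24, and the intervals of all 4 covered 0.

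The comparison of the 4-PBA group with the CVST group uses the same CVST mice as the previous comparison and the same treated mice as the one before, so its values are not a separate line of evidence. Of the 9 genes, 2 were again past an unadjusted p of 0.05 in edgeR's test, against 15.4% of all genes, and both were higher (8.07% of all genes). For 4 of the 9 the 2 sets of mice lay apart, against 23.7% of all genes, with 3 of them higher (12.3% of all genes) and 1 lower (11.5%). None passed the edgeR adjustment, which 0.122% of genes did, and DESeq2, which called 855 genes, called 1 of the 9.

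That 1 was Hdac11, which stood at 193.4, 154.5 and 120.4 CPM in the 4-PBA mice. Mouse 1 was the highest of the 9 mice, and mouse 3 was only just above the top CVST mouse. Against CVST the log2 fold change was 0.64 ± 0.19 (SE, 3 mice per group), or 1.56-fold with an interval of 1.16 to 2.08-fold, with an unadjusted p of 0.00708 and an adjusted p of 0.151 in edgeR's test. The unadjusted p stayed below 0.05 with any 1 of the 6 mice left out. Hdac8 stood at 28.7, 21.2 and 24.7 CPM in the 4-PBA mice, all above the 3 CVST mice, with a log2 fold change of 0.64 ± 0.25 (SE, 3 mice per group), an unadjusted p of 0.0292 and an adjusted p of 0.259 in edgeR's test. Its unadjusted p was 0.0911 without CVST mouse 1, 0.0542 without CVST mouse 2, 0.0908 without 4-PBA mouse 1 and 0.0563 without 4-PBA mouse 3 in the edgeR fit.

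Hdac5 and Hdac7 were the other 2 genes whose groups lay apart. Hdac5 measured 161.3, 177.6 and 217.4 CPM in the CVST mice, with only mouse 3 close to the 219.3 to 228.9 CPM of the 4-PBA mice, with a log2 fold change of 0.26 (interval -0.04 to 0.57), an unadjusted p of 0.0791 and an adjusted p of 0.384 in edgeR's test. Without CVST mouse 3 it was 0.38 with an unadjusted p of 0.00996 in that fit, and Hdac5 also passed an unadjusted p of 0.05 with total counts in place of TMM scaling (0.0315) and with limma on FPKM (0.0269 and 0.0282 at the 2 pseudocounts). Hdac7 measured 15.3, 18.6 and 14.1 CPM in the CVST mice, 15.6, 14.7 and 10.4 CPM in the CVST+Ligation mice and 11.7, 11.7 and 12.1 CPM in the 4-PBA mice. The treated mice were close together and under each CVST mouse, with a log2 fold change of -0.43 (interval -0.88 to 0.01), an unadjusted p of 0.0545 and an adjusted p of 0.336 in edgeR's test. Without CVST mouse 3 it was -0.53 with an unadjusted p of 0.0337 in that fit, and Hdac7 also passed with DESeq2 (0.0467) and with only the 2 groups fitted in edgeR (0.0456).

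**Figure D3:**
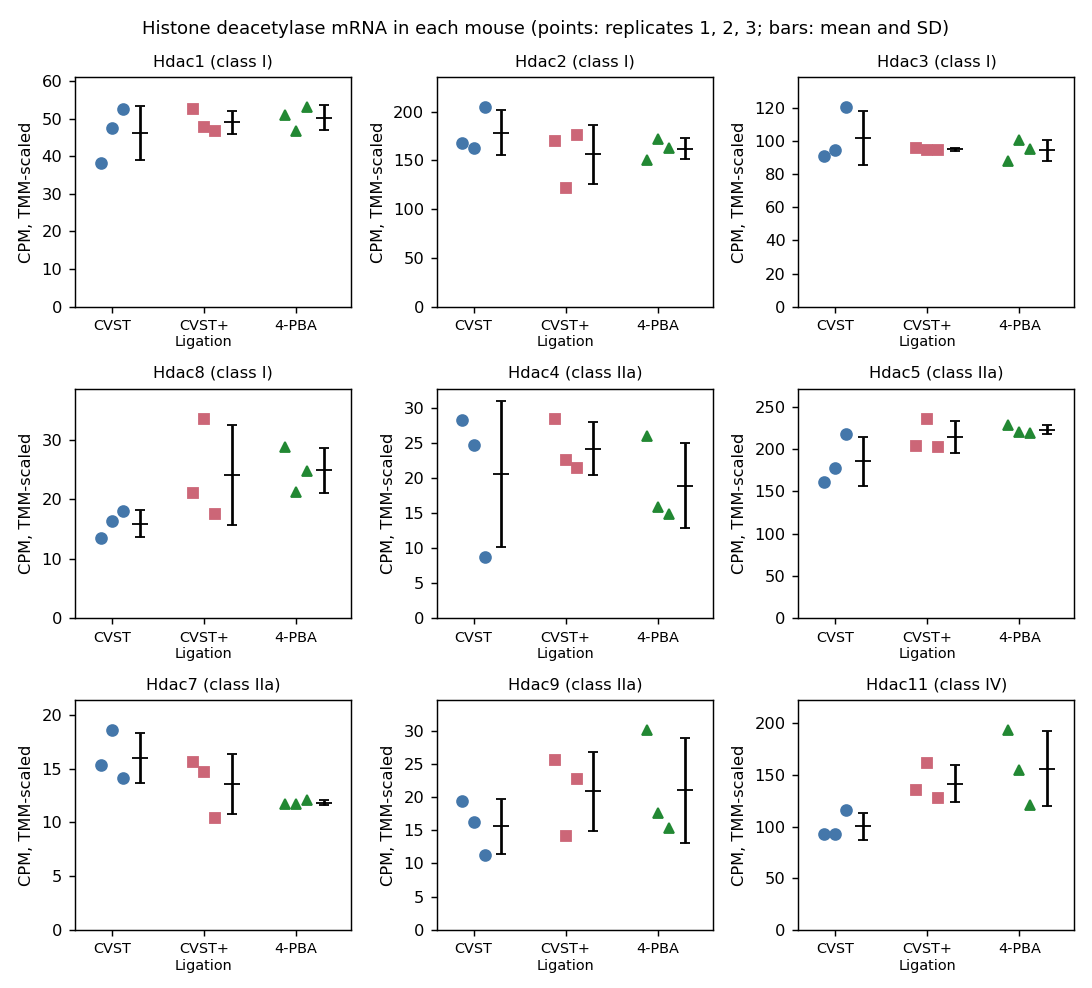
CPM of the 9 genes in each mouse (replicates 1 to 3 from left to right), scaled by TMM, with the mean and SD of each group beside the points and each vertical axis starting at 0. Hdac11 is higher in all ligated mice than in the CVST mice, Hdac8 is highest in CVST+Ligation mouse 2, and Hdac4 has 1 CVST mouse at 8.73 CPM.

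Oligodendrocyte, neuronal and several regional markers moved with Hdac11, Hdac8 and Hdac5. The 8 oligodendrocyte markers summed to 2600 to 3419 CPM in the CVST group, 2631 to 5903 CPM in the CVST+Ligation group and 4595 to 7453 CPM in the 4-PBA group, and none was at 0. All 8 had a log2 fold change above 0 in each comparison with the CVST group, and edgeR called 1 of 8 higher with ligation and 6 of 8 higher in the 4-PBA group at an unadjusted p below 0.05, against 5.47% and 8.07% of all genes. The 4-PBA mouse with the most oligodendrocyte marker counts, mouse 1 (7453 CPM), also had the most Hdac11. The next, CVST+Ligation mouse 2 (5903 CPM), had the second most Hdac11 and the most Hdac8. CVST+Ligation mouse 1, in contrast, had 2631 CPM of these markers, as little as the CVST mice, with Hdac11 at 135.4 CPM, above all CVST mice. The 6 astrocyte markers summed to 1698 to 2842 CPM in the CVST group, 2124 to 3457 CPM in the CVST+Ligation group and 2104 to 3358 CPM in the 4-PBA group, with none at 0 and overlap between all groups. The list was mixed, with 3 of the 6 higher with ligation at an unadjusted p below 0.05 in edgeR's test and 2, Aldh1l1 (-0.56) and Gfap (-0.23), below 0 on the log2 scale. Astrocyte sums did not follow Hdac11, since 4-PBA mouse 1, the highest for Hdac11, had 2199 CPM and CVST mouse 2, the lowest, had 2842 CPM. They ran closer to Hdac8 (Pearson r of 0.64 over the 9 mice) and Hdac5 (0.42). CVST+Ligation mouse 2 was highest both for the astrocyte sum (3457 CPM) and for Hdac8 (33.5 CPM). The sum of the 8 markers of neurons in general went the other way, at 5899 to 6522 CPM in the CVST group, 4345 to 5568 CPM in the CVST+Ligation group and 3732 to 4460 CPM in the 4-PBA group, with none at 0 and each CVST mouse above each ligated mouse. Not all 8 went down, since 2 of them, Gad2 and Tubb3, were above 0 on the log2 scale with ligation (0.12 and 0.07), and Snap25 and Rbfox3 were the 2 called lower. The summed level of 6 markers of cortical excitatory neurons also went down, at 496 to 558 CPM in the CVST group, 147 to 396 CPM in the CVST+Ligation group and 124 to 271 CPM in the 4-PBA group, with none at 0. Pearson r over the 9 mice (log2 scale) with the oligodendrocyte sum was 0.83 for Hdac11, 0.80 for Hdac8 and 0.78 for Hdac5. In that order it was 0.80, 0.74 and 0.71 with midbrain dopamine markers. With thalamic markers it was 0.75, 0.75 and 0.73, and with neuronal markers -0.73, -0.86 and -0.80. The 8 striatal markers summed to 1053 to 1772 CPM in the CVST group, 195 to 515 CPM with ligation and 254 to 1281 CPM with 4-PBA. The part of cell types and of brain regions in the Hdac11, Hdac8 and Hdac5 values was not tested.

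Microglial markers, among others, differed from the CVST group together with Hdac7. The 6 of them summed to 621 to 694 CPM in the CVST group, 484 to 566 CPM in the CVST+Ligation group and 510 to 585 CPM in the 4-PBA group, with none at 0, and all 6 had a log2 fold change below 0 in each comparison with the CVST group. CVST mouse 2 had the most microglial marker counts and the most Hdac7, and CVST+Ligation mouse 3 had the least of both. Endothelial markers, 6 genes summing to 202 to 314 CPM in the CVST group, 221 to 346 CPM with ligation and 265 to 315 CPM with 4-PBA, overlapped between all groups. Between the CVST+Ligation and 4-PBA groups, the median log2 fold change of the microglial markers was 0.01, beside -0.20 for Hdac7. The midbrain and hypothalamic markers given above, the oligodendrocyte markers and 6 thalamic markers were on average higher in the groups with less Hdac7, the thalamic ones summing to 70.4 to 81.2 CPM in the CVST group, 131 to 260 CPM in the CVST+Ligation group and 307 to 538 CPM in the 4-PBA group, with none at 0. The part of cell types and regions in the Hdac7 values was not tested.

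**Figure D4:**
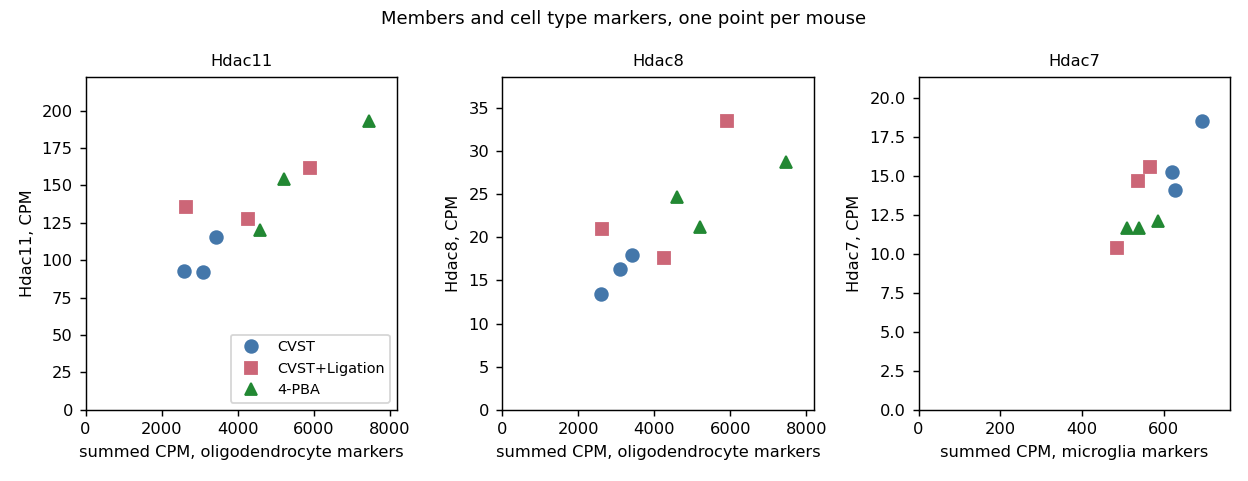
CPM of Hdac11 and Hdac8 against the summed CPM of 8 oligodendrocyte markers, and of Hdac7 against that of 6 microglial markers, with 1 point per mouse and all axes starting at 0. The 2 mice with the most oligodendrocyte marker counts (5903 and 7453 CPM) are also the top 2 for both Hdac11 and Hdac8.

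Hdac4 and Hdac9 varied widely between mice of the same group. Hdac4 measured 28.2, 24.7 and 8.73 CPM in the CVST mice, 28.4, 22.6 and 21.4 CPM in the CVST+Ligation mice and 25.9, 15.9 and 14.9 CPM in the 4-PBA mice. Hdac9, another class IIa partner of MEF2, measured 19.4, 16.2 and 11.2 CPM, then 25.7, 14.2 and 22.7 CPM, then 30.1, 17.6 and 15.4 CPM in the same order. CVST mouse 3 was the lowest of the 9 mice for both genes, and the coefficient of variation over the 9 mice was 31.7% for Hdac4 and 31.3% for Hdac9, against 9.57% for Hdac1 and 9.71% for Hdac3.

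These are the members with the longest mRNAs, 8100 bases for Hdac4 and 7940 bases for Hdac9 in their longest annotated form, and mice differed in how much long mRNA their libraries held. The median log2 level of genes with mRNAs above 4152 bases, minus that of genes with mRNAs of at most 2443 bases, was -0.54 in CVST mouse 3 and -0.11 to 0.28 in the other 8 mice. Hdac4 was highest in CVST+Ligation mouse 1, where this measure was also highest (0.28), and lowest in CVST mouse 3. Hdac3, whose longest mRNA has 2032 bases, went the other way and peaked in CVST mouse 3 at 120.6 CPM, against 87.8 to 100.5 CPM in the other 8 mice. Hdac5, with a longest mRNA of 4852 bases, did not follow Hdac4, since CVST mouse 3 was its highest CVST mouse (217.4 CPM). The same mouse was the highest for Hdac2 (204.8 CPM). Without CVST mouse 3, Hdac4 had a log2 fold change of -0.15 with ligation in place of 0.23. The part of mRNA length or RNA quality in these values was not tested. Of the exonic bases of Hdac4, 22.4% overlap Gm26720 on the opposite strand, and their reads may not be separate.

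**Figure D5:**
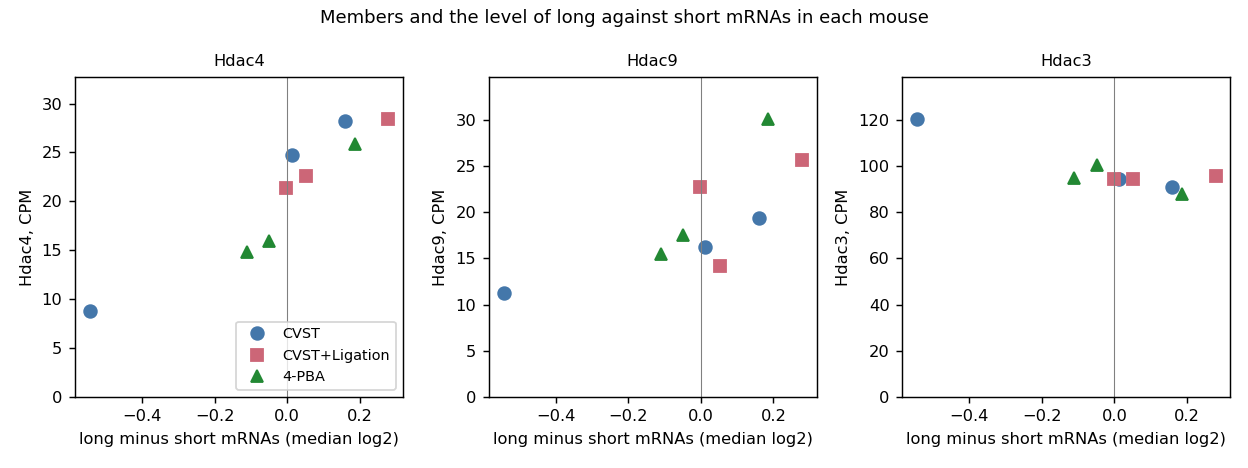
CPM of Hdac4, Hdac9 and Hdac3 in each mouse against the difference between long and short mRNAs in the same library (median log2, mRNAs above 4152 bases minus mRNAs of at most 2443 bases). CVST mouse 3, at -0.54 on the horizontal axis, is the lowest of the 9 mice for Hdac4 and Hdac9 and the highest for Hdac3.

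By class, the summed CPM of class I genes was 342.7 ± 46.5 in the CVST group, 324.3 ± 23.4 in the CVST+Ligation group and 331.5 ± 11.8 in the 4-PBA group (mean ± SD, n = 3 each). Class IIa genes summed to 237.6 ± 13.6, 272.7 ± 15.0 and 274.4 ± 19.3 CPM in that order. The class I means lay within 1 SD of each other, and the class IIa sums were 224 to 251 CPM in the CVST mice, 257 to 287 CPM in the CVST+Ligation mice and 262 to 297 CPM in the 4-PBA mice. Hdac5 makes up most of that class.

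Deacetylase inhibitors raise a familiar set of genes in cultured cells, and 11 of these were followed at the level of message. RNA was taken on day 2, and whether a response to the injection would still show then was not tested. In the 4-PBA group against CVST+Ligation, 10 of the 11 could be tested, Gdnf being too low, and none was higher at an unadjusted p below 0.05 in edgeR's test. At that level 3.23% of all genes were called in either direction. Gsn, the actin-severing gelsolin, came nearest at 208.7 against 137.4 CPM, a log2 fold change of 0.60 ± 0.27 (SE, 3 mice per group), with an unadjusted p of 0.0526 and an adjusted p of 0.9998 in edgeR's test. Klf2, an endothelial transcription factor, was lower, at 6.28 against 10.6 CPM with a log2 fold change of -0.76 ± 0.26 (SE, 3 mice per group), an unadjusted p of 0.0176 and an adjusted p of 0.9998 in edgeR's test. The cell-cycle inhibitors Cdkn1a (0.23) and Cdkn1c (0.48), the linker histone gene H1f0 (-0.18), the growth factor gene Bdnf (0.33), the heat shock genes Hspa1a (0.11) and Hspa1b (0.36), the chaperone gene Clu (0.05) and the glutamate transporter gene Slc1a2 (-0.15) did not pass on the log2 scale. Hspa1a and Hspa1b are near-identical copies that can share reads. The median of the 10 was 0.17 and that of all genes was -0.02, and 7 of the 10 were above 0.

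The same 10 genes showed no call in the CVST+Ligation group against CVST, where their median log2 fold change was -0.13, nor in the 4-PBA group against CVST, where it was -0.07. Over all genes, 9.64% and 15.4% were called in these comparisons at an unadjusted p below 0.05. Cdkn1a stood at 27.3 CPM in CVST mice, 15.0 CPM in CVST+Ligation mice and 17.7 CPM in 4-PBA mice on average, and neither difference from CVST passed edgeR's test (adjusted p of 0.623 and 0.621).

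The proteins that work with the 9 enzymes, or against them, were followed through a wider list of 103 genes that includes those 11, of which 101 could be tested. In the 4-PBA group against CVST+Ligation, none of the 101 was higher and 2 were lower at an unadjusted p below 0.05 in edgeR's test, or 1.98%, beside 3.23% of all genes. They were Klf2 and Camk4, a calcium-dependent kinase that phosphorylates class IIa enzymes, at 22.0 against 31.0 CPM (log2 fold change -0.49 ± 0.22, SE, 3 mice per group, with an unadjusted p of 0.0473 and an adjusted p of 0.9998 in edgeR's test). None of the 15 SIN3 genes, 11 NuRD genes, 10 CoREST genes, 11 genes of NCoR, MIDAC or MIER complexes or 10 acetyltransferase genes passed. The log2 fold changes nearest to passing were those of Suds3 (-0.17) and Sap30 (-0.47) in SIN3 and of Mta2 (-0.15) and Mta1 (-0.12) in NuRD. In CoREST they were those of Rcor2 (-0.49) and Hmg20b (0.32), in the NCoR and related complexes that of Gps2 (-0.27), and among acetyltransferases Ep300 (-0.18) and Kat6b (-0.19). For Suds3, Gps2 and Hmg20b the treated mice lay wholly to 1 side of the ligated ones. That held for 7.73% of all genes, but the genes named were picked by their low p, which makes separation likelier.

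The partners of class IIa enzymes gave 1 call, Camk4. The MEF2 factor Mef2c, which these enzymes repress, averaged 59.5 against 95.7 CPM, with a log2 fold change of -0.69 ± 0.44 (SE, 3 mice per group), and Mef2d had -0.29. Among the 14-3-3 genes Ywhag had -0.23 and Sfn -0.59, and the salt-inducible kinase gene Sik1 had -0.49. For Ywhag and Sik1, also picked by their low p, the 3 treated mice all lay under the ligated ones. None of these 5 passed. In the same comparison the 6 cortical excitatory markers had a median log2 fold change of -0.81, with 0 above 0. The 8 neuronal markers had a median of -0.25, with 3 above 0. The part of neuron content in the values of these partner genes was not tested. Among other deacetylases the 2 with the lowest p were Sirt2, a deacetylase of tubulin abundant in myelin (0.26), and Hdac10 (0.26), and neither passed.

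With ligation against CVST, 2 of the 101 were higher and 5 lower at an unadjusted p below 0.05 in edgeR's test, or 6.93% beside 9.64% of all genes, and none passed adjustment. The lower genes were the nuclear deacetylase gene Sirt7 (23.7 against 35.2 CPM, log2 fold change -0.57), the SIN3 subunit genes Brms1 (-0.59) and Ing2 (-0.67), the acetyltransferase gene Kat2a (-0.29) and the kinase gene Camk1 (-0.37). The higher ones were the NuRD subunit gene Mta3 (105.3 against 82.5 CPM, log2 fold change 0.35) and the kinase gene Camk2d (135.7 against 79.0 CPM, log2 fold change 0.78). For Sirt7, Brms1, Ing2, Kat2a, Mta3 and Camk2d the groups did not overlap. That held for 13.8% of all genes, but the genes named were picked by a low p in the same comparison. Such a choice makes separation likely, so it is no separate support. In lists with no call or a single one, the next log2 fold changes by p were those of Chd3 (0.49), Hmg20b (-0.28), Rcor2 (-0.34), Dnttip1 (-0.34), Mier1 (0.33), Kat2b (0.64), Mef2c (-0.83), Mef2d (-0.14), Ywhah (-0.20), Ywhaz (-0.32) and Hdac10 (-0.47), none past the level. In the 4-PBA group against CVST, 1 of the 101 was higher, the protein kinase gene Prkd3, and 13 were lower, beside 8.07% higher and 7.33% lower of all genes (in both directions 13.9% beside 15.4%), with none after adjustment.

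Of the class IIb genes, Hdac6, a cytoplasmic tubulin deacetylase, averaged 67.0 ± 8.18 CPM in the CVST group, 65.2 ± 3.39 CPM in the CVST+Ligation group and 61.9 ± 4.52 CPM in the 4-PBA group (mean ± SD, n = 3 each). Hdac10, which deacetylates polyamines, averaged 10.6 ± 2.40, 7.635 ± 0.72 and 9.15 ± 2.00 CPM in that order, lowest with ligation. Its log2 fold change for ligation against CVST was -0.47 (interval -1.02 to 0.08), and no difference between groups passed for either gene.

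For each of the 9 genes, the gene most like it was taken as the one with the highest Pearson r of log2 CPM over the 9 mice, out of the 14746 tested. The r values describe these mice only, which differ together in group, regional markers and library quality. Each match is the highest out of all genes tested, so a high r arises readily over 9 mice. The matches were Cib2 for Hdac5 (0.99), Dnal4 for Hdac2 (0.99), Irgq for Hdac4 (0.99), Sema4g for Hdac11 (0.97), Pigv for Hdac8 (0.96), Vps25 for Hdac3 (0.96), Ankib1 for Hdac9 (0.95) and Csf1r, itself among the microglial markers summed above, for Hdac7 (0.90). The match of Hdac1 (0.93) was Fam205a1, at 0.30 to 0.39 CPM on average in the groups, near the lowest countable level. Among the 9 themselves, Hdac5 and Hdac8 (0.87), Hdac5 and Hdac11 (0.84), Hdac8 and Hdac11 (0.83) and Hdac4 and Hdac9 (0.72) were alike over the 9 mice, and Hdac3 and Hdac4 ran opposite (-0.87).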

How the data were processed

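RNA from the brains of 9 mice, 3 per group, was sequenced, and samples were grouped by the names in their labels. Nothing in the labels says more about the replicates than that they are separate samples, so p-values measure the spread between them. The authors' reads were trimmed with fastp, aligned with HISAT2, assembled with StringTie and quantified with RSEM, per the methods and the labels, against GRCm38, with no program versions given. The authors deposited whole-number read counts per gene symbol, not normalized, and FPKM values, which the methods call TPM and which equal the counts divided by the library total and by 1 length per gene. Of those lengths, 74.8% are multiples of 3, so they are mostly coding lengths.

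Counts were tested in R 4.3.3 with edgeR 4.0.16 (filterByExpr, TMM scaling, quasi-likelihood F test) in 1 fit of the 3 groups, with Benjamini-Hochberg adjustment over 14746 genes and a threshold of 0.05. Intervals are 95% intervals of the fitted log2 fold change. CPM are TMM-scaled. Alternatives were DESeq2 1.42.0 and its size factors, total counts without scaling, other count filters (at least 1 count, or at least 10 in every library), the 2 compared groups alone, a replicate block, limma 3.58.1 on log2(FPKM + 1) and log2(FPKM + 0.1), and leaving out each library. The scripts were tested on simulated data. Figures were drawn with matplotlib 3.10.9.

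Text named all 9 genes, Hdac6, Hdac10, the list of inhibitor-raised genes, from each other pathway list the 2 lowest in p in either of the first 2 comparisons, every listed gene past an unadjusted p of 0.05 in the first 2 comparisons, and the gene most like each member. The result for 1 gene that this rule names is not reported here. The members, gene lists and markers were chosen with earlier results of these data known. Lengths of mRNAs and overlaps between genes came from GENCODE. Libraries of 1 group correlated at 0.946 to 0.982 (log2 CPM) and differed by more than counting noise. With 3 mice against 3, an exact permutation test cannot go below 0.10, so none was used.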

Additional observations from a re-analysis of the deposited data

How the results depend on the processing

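No alternative gave an adjusted call for any of the 9 genes, except DESeq2, which called 1 gene (Hdac11) in the 4-PBA group against CVST. In the 4-PBA group against CVST+Ligation, no alternative, leaving out any 1 library included, gave an unadjusted p below 0.05 for any of the 9. With ligation against CVST, leaving out single libraries gave 0 to 3 genes in place of 2, with 0 without CVST mouse 1, CVST mouse 2 or CVST+Ligation mouse 2, and fitting only the 2 groups gave 1, Hdac8 dropping out. In the 4-PBA group against CVST, leaving out single libraries gave 1 to 4 genes in place of 2, the 4 without CVST mouse 3. It was 3 with total counts, DESeq2, only the 2 groups, and limma at both pseudocounts. Without both CVST mouse 3 and CVST+Ligation mouse 2, an alternative chosen after seeing the data, it was also 4.

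Same-numbered libraries deviated from their group means with correlations of -0.05 to 0.32, with a median of 0.04, against -0.03 for other pairs. Since not every such correlation was over 0.1, and no source says what a number marks, the mice were not treated as paired, although 7 of 9 libraries correlated best with their own number, a hint from the data. With a replicate block the unadjusted count was 0 in the 4-PBA group against CVST+Ligation (521 genes in all, in place of 476), 1 with ligation against CVST, Hdac8 dropping out with an unadjusted edgeR p of 0.0665 (1765 in place of 1422) and 2 in the 4-PBA group against CVST (2644 in place of 2271).

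Signs turned only for values that did not pass. For the 4-PBA group against CVST+Ligation, Hdac3 gave 0.022 with total counts and 0.020 with limma at both pseudocounts, Hdac9 gave -0.028 with the block, and without the 2 libraries named above Hdac2 gave -0.10 and Hdac9 -0.20. Without them, ligation against CVST gave 0.049 for Hdac2, 0.018 for Hdac3 and -0.11 for Hdac4, and 4-PBA against CVST gave 0.0089 for Hdac3. Hdac4 in the last comparison gave 0.038 and 0.069 with limma. Leaving out single libraries moved the log2 fold change for 4-PBA against CVST+Ligation over -0.0070 to 0.10 (Hdac1), -0.087 to 0.15 (Hdac2), -0.056 to 0.058 (Hdac3), -0.13 to 0.38 (Hdac8), -0.32 to 0.20 (Hdac9) and -0.027 to 0.30 (Hdac11). For ligation against CVST the ranges were -0.033 to 0.17 (Hdac1), -0.18 to 0.014 (Hdac3) and -0.15 to 0.52 (Hdac4), and for 4-PBA against CVST -0.18 to 0.0090 (Hdac3) and -0.51 to 0.18 (Hdac4). The cause of these shifts was not tested. Each of the 9 genes had at least 161 counts per library.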
